A study of Mus musculus with 12 samples.

Results

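The core circadian clock genes are the 10 genes Arntl (which encodes BMAL1), Clock, Per1, Per2, Per3, Cry1, Cry2, Nr1d1, Nr1d2 and Dbp. They were taken by symbol from a count table of 14398 genes. All 10 were in the table, had a count above 0 in every library and were among the 14266 genes that passed the filter on low counts.

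The table holds messenger RNA of adipocyte precursor cells, the fibroblast-like cells from which fat cells form, in 12 libraries. There were 4 groups of 3 libraries: perigonadal (VWAT) or inguinal subcutaneous (SWAT) white fat, on a standard diet (SD, Harlan Laboratories 2018S, given as day 0) or on a high-fat diet (HFD, Research Diets D12492, 60% lard) given for 3 days. In every group the mice were male C57Bl6/J aged 6 to 8 weeks, and each library was a pool from 3 mice. Cells were sorted as CD45-/CD31-, CD29+, CD34+, Sca1+ and CD24-/+. The room was lit from 7 a.m. to 7 p.m., with 12 hours of light and 12 of dark, and the labels give no hour of tissue collection. The labelled day, 0 for SD and 3 for HFD, goes with the diet and is not a date of collection. Any difference in day or hour of collection that went with the diet cannot be told apart from it. The labels do not say whether VWAT and SWAT libraries with the same number came from the same mice, and p-values measure the spread between these pools.

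The clock is a feedback loop of transcription that runs in nearly every cell. BMAL1 and CLOCK bind E-boxes in DNA as a pair and drive the Per and Cry genes, whose proteins return to the nucleus and repress that pair. In a second loop the same pair drives Nr1d1 and Nr1d2, whose proteins REV-ERB alpha and REV-ERB beta repress Arntl through elements that ROR proteins also bind. Dbp is an output of the E-boxes and encodes a factor that binds D-boxes. As a result, Dbp, Nr1d1, Nr1d2 and the Per genes peak at another time of day than Arntl, in fat as in other tissues, with Cry1 later than the Per genes. A change of collection time between groups would therefore move these genes against Arntl, and the comparisons below ask whether the groups differed in this way.

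Short stretches of promoters are shown because they hold the letters of the motifs through which the loops run. They come from RefSeq windows on GRCm38.p6, from 250 bases before to 50 bases after each start site, for the 9 members that matched. Per2 was the member not matched. The first pair holds the E-box CACGTG, which 7.15% of 32851 promoter windows hold on either strand. The second pair holds CACGTT, here read as its reverse complement AACGTG, which 4.68% of windows hold. Per3 has the D-box TTANGTAA, held by 2.32% of windows, at both ends of the stretch shown. Arntl has TAGGTCA, an element read by ROR and REV-ERB, held by 2.61% of windows. Capitals mark the motif, and each sequence is written 5′ to 3′ on the gene's strand.
Per1, chr11:69098772-69098799, + strand: gcacccaagtcCACGTGcagggatgtgt
Cry1, chr10:85185098-85185125, - strand: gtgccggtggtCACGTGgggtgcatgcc
Cry2, chr2:92434219-92434246, - strand: cacatggtgggAACGTGagggggcggag
Nr1d1, chr11:98775389-98775416, - strand: gcacagatctcAACGTGccggctgctgg
Per3, chr4:151044805-151044881, - strand: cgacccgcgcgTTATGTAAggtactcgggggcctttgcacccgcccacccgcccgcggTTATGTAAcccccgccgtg
Arntl, chr7:113207530-113207558, + strand: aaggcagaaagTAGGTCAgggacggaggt
The motifs start at base -166 from the start site in Per1, -60 in Cry1, -166 in Cry2, -28 in Nr1d1 and +31 in Arntl, and at -205 and -158 in Per3. In all, 2 of the 9 matched members held CACGTG, 3 held CACGTT (Cry1, Cry2 and Nr1d1), 1 held the D-box and 1 held TAGGTCA. A match is a run of letters and does not show binding, and a window without one says nothing about the factor. Per1 and Nr1d1 hold an E-box form and Arntl the REV-ERB form, and the levels of Per1 and Nr1d1 are set against those of Arntl below.

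Depth ran from 17.6 M to 56.1 M counts in genes (M, 1e6). Markers of adipocyte precursors were detected in every library, 10 of 10, with a summed level of 20200 to 80400 CPM (counts per 1e6 counts). Col1a1 gave 4680 to 64300 CPM of this sum and Dcn 8000 to 13000 CPM. The gate's excluded cells were low: 10 leukocyte markers summed to 7.96 to 46.5 CPM, with Cd3e at 0 in some library, and 10 endothelial markers to 188 to 321 CPM, of which Tek alone gave 173 to 302 CPM and Pecam1, the gene of CD31, 1.44 to 8.66 CPM. Fat cell markers summed to 111 to 330 CPM (9 of 10 in the table), mural markers to 33.7 to 109 CPM (8 of 8) and skeletal muscle markers to 2.13 to 4.75 CPM (4 of 8, Myl1 at 0 in some library). Mesothelial markers (6 of 8) summed to 103 to 131 CPM in VWAT, mostly Wt1, and 2.41 to 4.83 CPM in SWAT, where Msln and Upk1b reached 0. These are bulk samples, so fewer cells of a type and less RNA per cell cannot be told apart.

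None of the 10 clock genes passed the test between HFD and SD, in either depot, by edgeR's quasi-likelihood test with Benjamini-Hochberg adjustment over all genes. The count was 0 of 10 in VWAT, where 15.6% of all genes passed (adjusted p under 0.05), and 0 of 10 in SWAT, where 1.11% passed. Not passing does not show that a gene was unchanged, and in SWAT 0 of 10 was near the share over all genes. At an unadjusted p under 0.05 the count was also 0 in both depots, against 4505 and 2120 genes in all. Differences were small on the log2 scale, from -0.37 to 0.06 in VWAT and from -0.41 to 0.36 in SWAT. The 95% intervals of all 10 members in VWAT stayed within a doubling or halving, between -0.93 and 0.37. In SWAT 9 of 10 did, and the interval of Per2 reached -1.02. The median difference of the members was -0.13 in VWAT and 0.00 in SWAT, beside -0.017 and -0.001 over all genes. For no member did the HFD libraries lie wholly apart from the SD libraries, whereas 33.0% of all genes in VWAT and 21.8% in SWAT did.

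**Figure D1:**
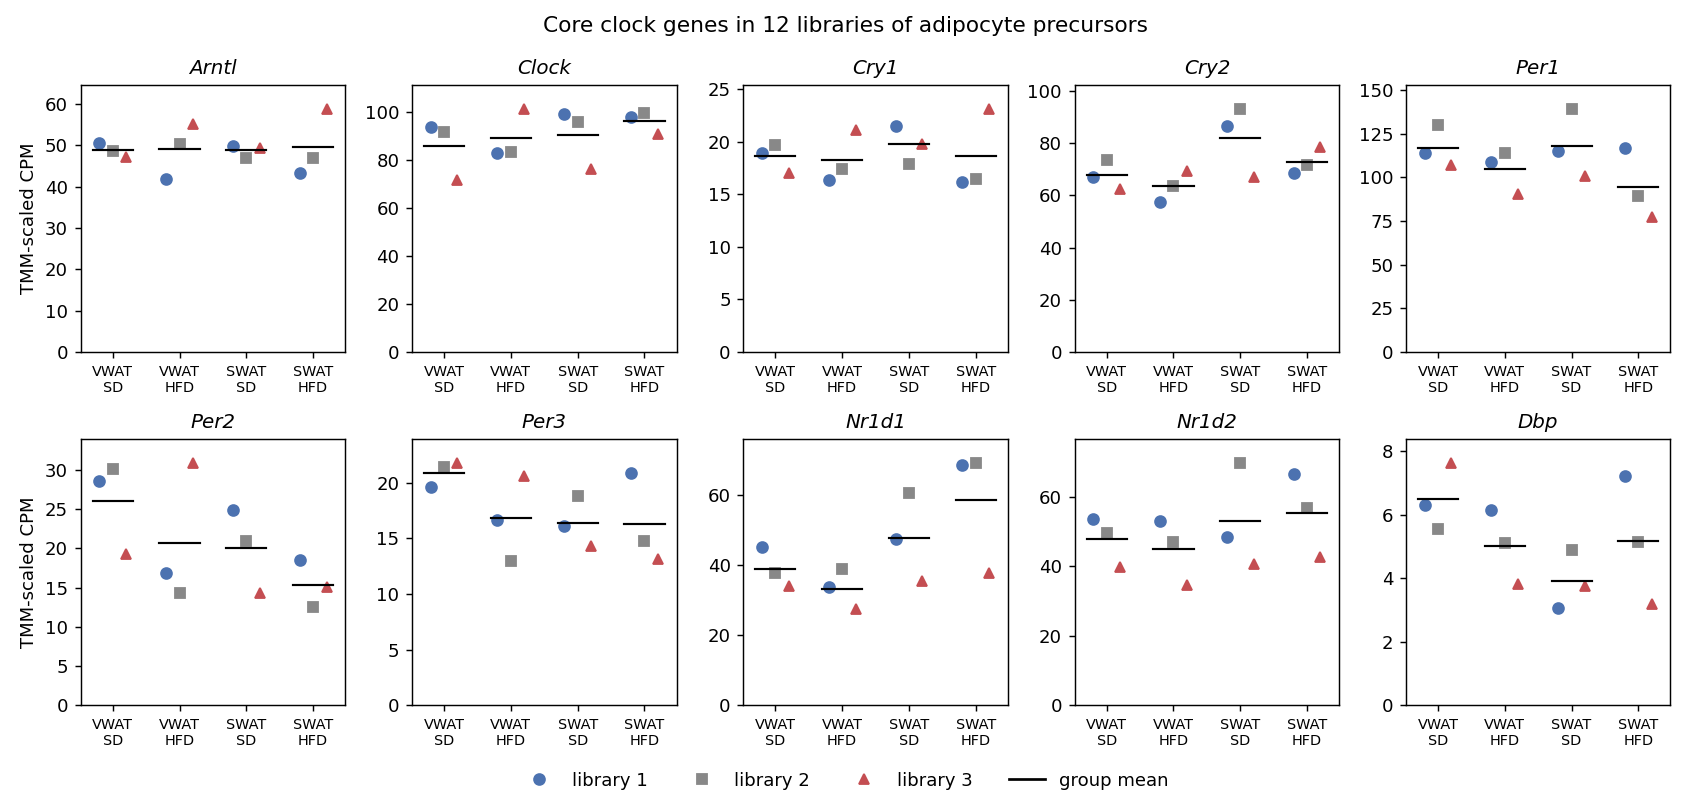
Level of each clock gene in TMM-scaled CPM (y axis, from 0) in the 4 groups (x axis). Points are libraries 1 to 3 and the line is the group mean. SD and HFD libraries overlap in every panel, and library 3 is the lowest of its group for Per1, Nr1d1 and Nr1d2 in all 4 groups.

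Arntl and Clock encode the activators, and the mean of Arntl was between 48.8 and 49.5 CPM in all 4 groups. It stood at 50.6, 48.7 and 47.2 CPM in VWAT_SD libraries 1 to 3 and at 41.7, 50.3 and 55.1 CPM in VWAT_HFD. In SWAT it stood at 49.8, 47 and 49.4 CPM on SD and at 43.2, 46.8 and 58.7 CPM on HFD. The SD libraries of both depots lay close together, and the HFD libraries spread to both sides of them, with library 1 the lowest and library 3 the highest in each depot. The log2 difference, HFD minus SD, was 0.01 ± 0.119 (SE) in VWAT and 0.03 ± 0.12 in SWAT (adjusted p = 0.979 and 0.948, edgeR). Clock ran from 71.4 to 101 CPM in VWAT and from 76 to 99.4 CPM in SWAT, and its differences were 0.06 and 0.09 (adjusted p = 0.802 and 0.81, edgeR). In both depots the lowest Clock level was in SD library 3.

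The Per genes encode the PERIOD repressors. Per1, which also answers quickly to hormones and stress signals, had the highest group mean of the 10 genes per length in 3 of the 4 groups, 18.6 to 21 CPM per kb of exon. In SWAT_HFD it had 16.8 and Nr1d1 19 CPM per kb. Its libraries read 114, 130 and 107 CPM in VWAT_SD, and 109, 114 and 90.3 CPM in VWAT_HFD. In SWAT they read 115, 139 and 101 CPM on SD, and 117, 89.5 and 77.1 CPM on HFD. Library 3 was the lowest in each of the 4 groups. The difference was -0.16 ± 0.158 in VWAT and -0.33 ± 0.159 in SWAT (adjusted p = 0.522 and 0.354, edgeR), the latter with an interval of -0.67 to 0.01.

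Per2 had a wider spread than Per1 and Per3 in 3 of the 4 groups. It measured 28.6, 30.1 and 19.3 CPM in VWAT_SD and 16.9, 14.3 and 30.9 CPM in VWAT_HFD. The 2 lowest VWAT libraries were thus on HFD, and so was the highest. In SWAT it measured 24.9, 20.9 and 14.3 CPM on SD and 18.5, 12.6 and 15.1 CPM on HFD. The difference was -0.33 ± 0.274 in VWAT and -0.41 ± 0.284 in SWAT (adjusted p = 0.437 and 0.55, edgeR). One library decided the VWAT value: without VWAT_HFD replicate 3 it was -0.74 (adjusted p = 0.03, edgeR), and Per2 then passed. Per3 ran from 13 to 21.8 CPM in VWAT and from 13.2 to 20.9 CPM in SWAT, with differences of -0.32 and -0.03 (adjusted p = 0.236 and 0.962, edgeR). With HFD replicate 3 of both depots left out, Per3 also passed in VWAT, at -0.49 (adjusted p = 0.0316, edgeR), next to Per2 (adjusted p = 0.0356), while 33.2% of all genes passed.

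Cry1 and Cry2 encode the CRYPTOCHROME partners of PERIOD. Cry1 levels were 18.9, 19.7 and 17 CPM in VWAT_SD and 16.4, 17.4 and 21.1 CPM in VWAT_HFD. The SWAT levels were 21.5, 17.9 and 19.8 CPM on SD and 16.2, 16.5 and 23.1 CPM on HFD. On HFD its order was that of Arntl, with library 1 lowest and library 3 highest in both depots. Cry2 ran from 57.6 to 73.6 CPM in VWAT and from 67 to 93 CPM in SWAT. Differences with diet were -0.02 and -0.08 for Cry1 and -0.09 and -0.17 for Cry2, VWAT first, with adjusted p from 0.55 to 0.933 (edgeR).

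Nr1d1 and Nr1d2, the REV-ERB repressors of Arntl, spread by up to 1.84-fold and 1.71-fold between libraries of a group. Nr1d1 stood at 45, 37.8 and 33.9 CPM in VWAT_SD, and at 33.8, 38.8 and 27.4 CPM in VWAT_HFD. In SWAT it stood at 47.5, 60.4 and 35.5 CPM on SD and at 68.5, 69.1 and 37.6 CPM on HFD. SWAT_HFD libraries 1 and 2 were the 2 highest of the 12, while library 3 of that group lay among the low ones. Nr1d2 ran from 34.6 to 53.7 CPM in VWAT and from 40.7 to 69.8 CPM in SWAT, and library 3 was the lowest of every group for both genes. The difference with diet was -0.22 in VWAT and 0.28 in SWAT for Nr1d1 (adjusted p = 0.55 and 0.63, edgeR), and -0.09 and 0.05 for Nr1d2 (adjusted p = 0.817 and 0.948). Nr1d1 shares 263 exon bases with Thra on the other strand, Dbp 539 with Sphk2 and Cry2 295 with D930015M05Rik in the GENCODE annotation. The sources used here do not say whether reads were counted by strand, so these 3 members are uncertain.

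Dbp, the output gene, had the lowest counts of the 10. It measured 6.31, 5.56 and 7.64 CPM in VWAT_SD and 6.15, 5.12 and 3.83 CPM in VWAT_HFD. In SWAT it measured 3.08, 4.89 and 3.76 CPM on SD and 7.22, 5.14 and 3.2 CPM on HFD. Within SWAT_HFD the highest library was 2.25 times the lowest, the widest spread of any member in any group. The difference was -0.37 ± 0.26 in VWAT and 0.36 ± 0.279 in SWAT (adjusted p = 0.358 and 0.597, edgeR), so the 2 depots had opposite signs. The difference of the differences was -0.73 ± 0.382 (adjusted p = 0.76, edgeR) and did not pass. No other member passed that comparison either, 0 of 10, and over all genes the share was 0%, or 0 of 14266 by edgeR with 1026 genes at an unadjusted p under 0.05. With both HFD libraries numbered 3 left out, 343 of all genes passed it and still none of the members.

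**Figure D2:**
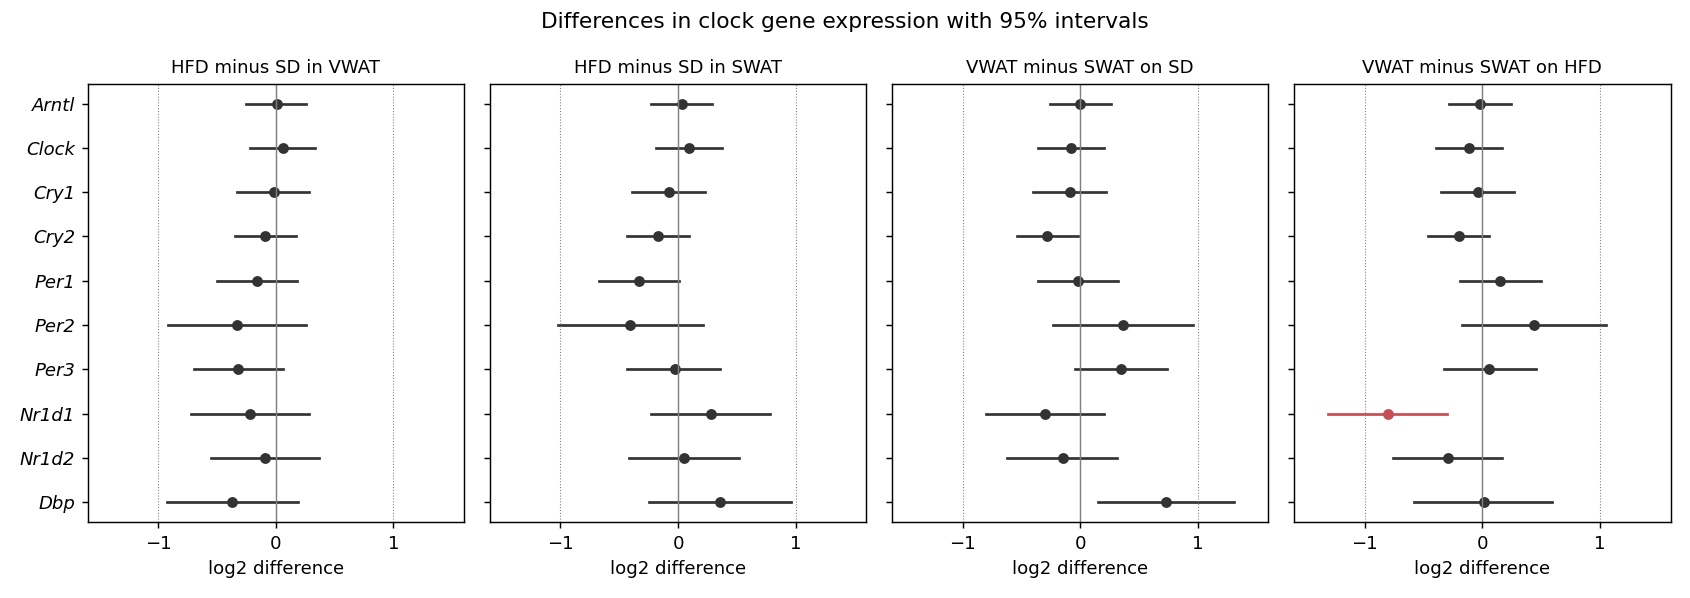
Log2 difference (x axis) of each clock gene (y axis) with its 95% interval, for diet in VWAT and SWAT and for depot on SD and HFD; dotted lines mark a doubling and a halving. All intervals of the diet panels cross 0, and the red interval, Nr1d1 at -0.80 on HFD, is the one that passed the test.

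Genes of opposite phase were then read against each other within a library, where scaling cancels. The log2 ratio of Dbp to Arntl was -3.00, -3.13 and -2.63 in VWAT_SD and -2.76, -3.3 and -3.85 in VWAT_HFD. In SWAT it was -4.02, -3.27 and -3.72 on SD and -2.58, -3.19 and -4.19 on HFD. The group means differed by -0.38 in VWAT and by 0.35 in SWAT, HFD minus SD, so the depots had opposite signs for this ratio. Beside these differences, the HFD libraries ranged over 1.09 in VWAT and 1.61 in SWAT. Without SWAT_HFD replicate 1 the SWAT difference was -0.02, and without replicate 3 it was 0.78. In VWAT it was -0.11 without VWAT_HFD replicate 3 and -0.65 without replicate 1.

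The other ratios to Arntl were read in the same way. Nr1d1 to Arntl differed with diet by -0.22 in VWAT and by 0.26 in SWAT on the log2 scale, and Nr1d2 to Arntl by -0.1 and 0.06. Per1 to Arntl was lower on HFD in both depots, by -0.16 and -0.34, and Per2 to Arntl by -0.38 and -0.37, beside ranges among the HFD libraries of 0.68 and 1.04 for Per1 and 0.98 and 0.73 for Per2. Per3 to Arntl gave -0.34 and -0.04. In VWAT every ratio to Arntl, that of Dbp included, was thus lower on HFD. In SWAT those of the Per genes were lower and those of Dbp, Nr1d1 and Nr1d2 higher. Each VWAT difference was smaller than the range of that ratio among the VWAT_HFD libraries. The ratios share Arntl and are not independent, and whether collection time had a part was not tested. These ratios were read as descriptions, with no test: an exact permutation test of 3 libraries against 3 cannot give a p under 0.1.

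**Figure D3:**
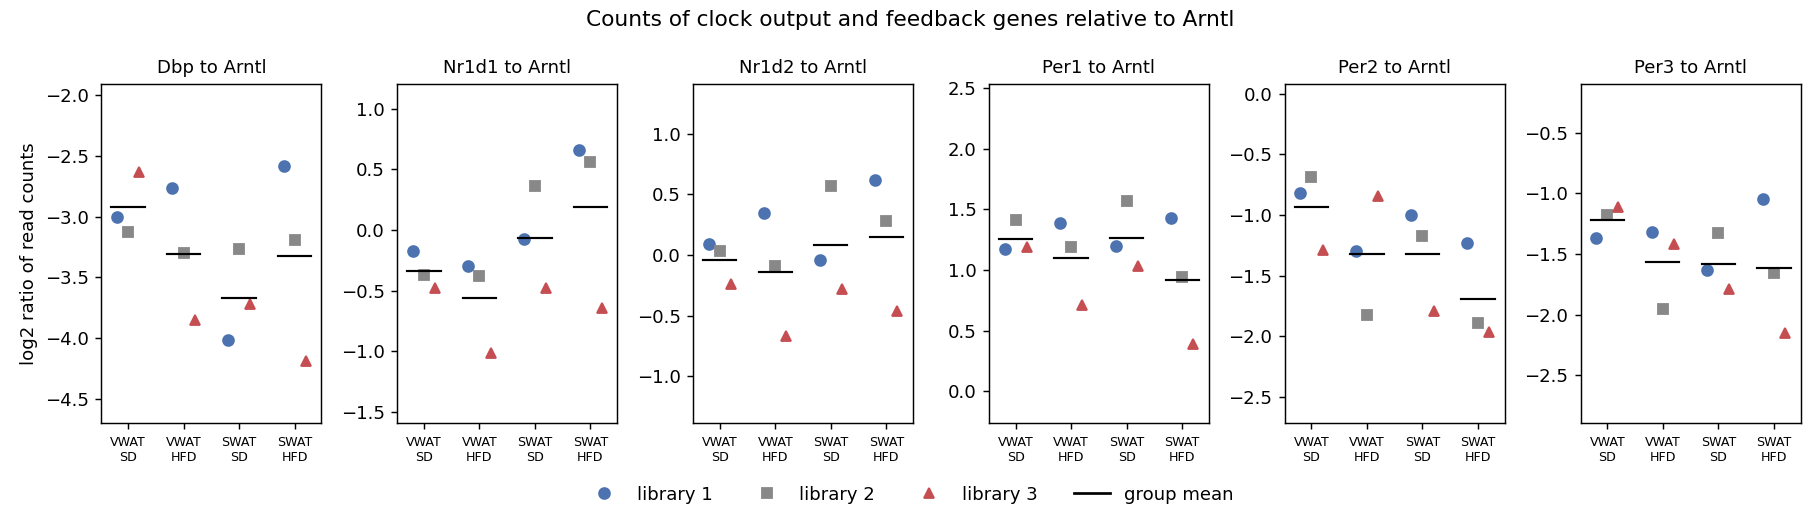
Log2 ratio of read counts of 6 clock genes to Arntl (y axes, each with its own range) by group (x axis); points are libraries 1 to 3 and lines are group means. For Dbp, Nr1d1, Nr1d2 and Per1 HFD library 1 is the highest and HFD library 3 the lowest of its group in both depots, and the SD and HFD means lie closer together than these libraries.

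The spread within groups had a pattern of its own. For all 10 members the largest fold between 2 libraries of a group, 1.2 to 2.17 in VWAT and 1.3 to 2.25 in SWAT, was above the fold between diets, 1 to 1.29 and 1.02 to 1.32. An extreme of single libraries is set here against a difference of means, so this outcome was likely for any gene whose diets overlap. The share over all genes was not counted for it. HFD library 3 of both depots had the highest Arntl, Cry1 and Cry2 of its group and the lowest Per1, Nr1d1, Nr1d2 and Dbp. HFD library 1 of both depots had the highest Nr1d2 and Dbp and the lowest Arntl, Cry1 and Cry2. Thus 7 of 10 members had the same end in both libraries numbered 3 and 5 of 10 in both libraries numbered 1. The share of all genes with a shared end was not counted, so these counts have no background beside them. Over all genes, deviations from the group mean correlated between depots at -0.08, 0.18 and 0.07 in HFD libraries 1 to 3. Clock and Per3 were at opposite ends in the libraries numbered 3, highest in VWAT and lowest in SWAT. HFD library 2 shared the ends of Nr1d1 (highest) and Per2 (lowest).

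In the SD libraries other genes shared their ends. SD library 3 of both depots had the lowest Clock, Per1, Per2, Cry2, Nr1d1 and Nr1d2, which are members of both arms of the loop, and Arntl varied by 1.07-fold at most in either SD group. Over all 4 groups, library 3 had the lowest Per1, Nr1d1 and Nr1d2, and no member had its highest level in the library of 1 number in all groups. The share over all genes was not counted for these shared ends either. Deviations of SD library 3 correlated between depots at 0.4 over all genes. The labels say nothing of what a library number stands for. Whether same-numbered pools shared a day, an hour or a set of mice was not tested.

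**Figure D4:**
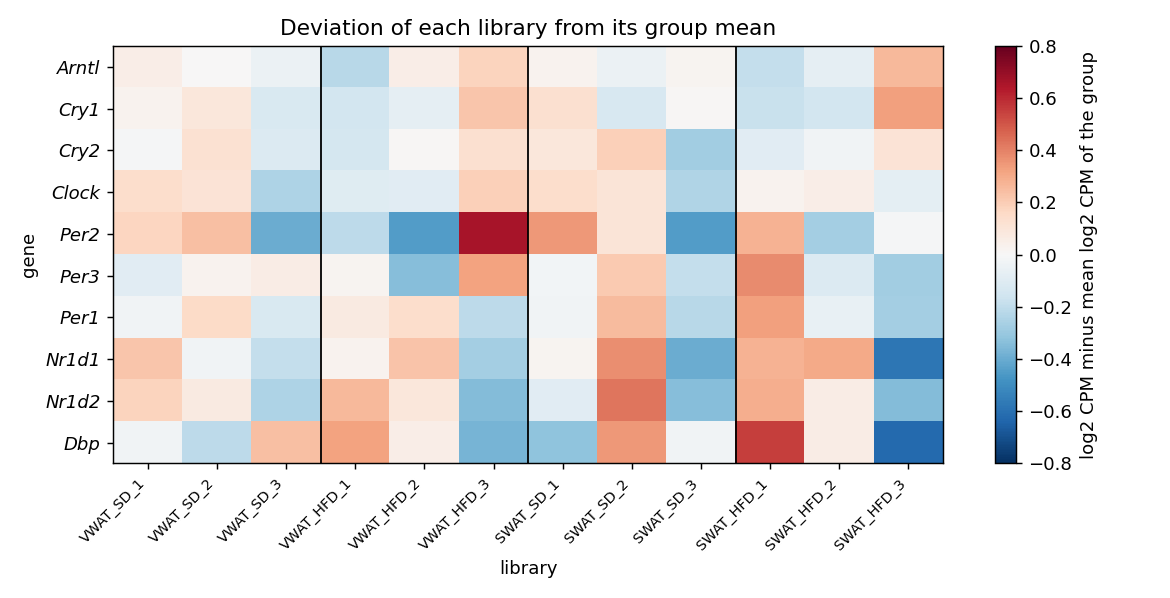
Log2 CPM of each clock gene (rows) in each library (columns) minus the mean of its group; red is above and blue below the group mean. In VWAT_HFD_3 and SWAT_HFD_3, Arntl and Cry1 are red and Per1, Nr1d1, Nr1d2 and Dbp are blue, and in VWAT_HFD_1 and SWAT_HFD_1 Arntl and Cry1 are blue and Dbp red.

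Other measures moved with these HFD libraries too, and their part in the pattern was not tested. In VWAT_HFD the summed CPM of 10 cell division genes was 262, 425 and 112 in libraries 1 to 3, lowest in library 3, whereas in SWAT_HFD it was 95.6, 134 and 128. Summed heat and cold response genes (12) were 7990, 9730 and 12100 CPM in VWAT_HFD and 12300, 13500 and 15100 CPM in SWAT_HFD, highest in library 3 of both. Heat shock genes (Hspa1b, Hspa8 and Dnajb1) gave most of these sums. The cold-induced genes did not share that order throughout. Rbm3 in VWAT_HFD (90.3, 84.4 and 60.7 CPM) and Cirbp in SWAT_HFD (15.6, 11.7 and 10 CPM) were lowest in library 3, and each was highest there in the other depot. Hspe1 in VWAT_HFD and Hspa1a in SWAT_HFD were not highest in library 3. Immediate early genes (20), which rise within minutes of handling or digestion of tissue, summed to 23900, 28300 and 35500 CPM in VWAT_HFD and to 35200, 35500 and 34300 CPM in SWAT_HFD. The VWAT_HFD order was that of abundant genes such as Egr1, Zfp36, Fos and Jun. Fosl1, Egr3, Nr4a2, Ier3 and Crem were lowest in VWAT_HFD library 3, such as Nr4a2 at 96.4, 152 and 68.7 CPM. Adipocyte precursor markers summed to 25200, 27200 and 20900 CPM in VWAT_HFD and 72300, 80400 and 47600 CPM in SWAT_HFD, lowest in library 3 of both. Col1a1 alone was 10600, 14700 and 6880 CPM and 56400, 64300 and 30500 CPM. Dcn, the next largest, did not share that order, at 10000, 8270 and 9790 CPM and 8000, 8510 and 9670 CPM. Summed mural markers were also lowest in library 3 of both, at 54.1, 67.3 and 33.7 CPM and 82.3, 90.9 and 55.7 CPM. Abcc9 made up most of the SWAT_HFD sum, at 65.5, 64.2 and 39.3 CPM. Myh11 and Cspg4 in VWAT_HFD, and Rgs5, Tagln, Myh11 and Mcam in SWAT_HFD, were not lowest in library 3. Summed endothelial markers were 234, 201 and 188 CPM and 315, 321 and 250 CPM. Tek alone gave 190, 173 and 181 CPM and 298, 282 and 225 CPM. In VWAT_HFD every endothelial marker but Tek and Emcn was lowest in library 3, such as Cdh5 at 12.5, 7.8 and 1.1 CPM. In SWAT_HFD every endothelial marker but Tek was lowest in library 1, such as Pecam1 at 3.08, 8.29 and 5.24 CPM. Depth in SWAT_HFD was 17.6 M, 39.2 M and 52.6 M counts, and 56.1 M, 49.1 M and 43.1 M in VWAT_HFD, so its order differed between depots.

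As a description of how members move together, each gene's log2 CPM was taken relative to its group mean and correlated with Arntl over the 12 libraries and 9942 genes with a mean of at least 5 CPM. Cry1 followed Arntl with r = 0.89, rank 43, and Dbp ran against it with r = -0.88, rank 9920. Dbp ran most strongly against Cry1, with r = -0.95, rank 9941. Without the 2 HFD libraries numbered 3, over 10 libraries, these values were 0.55, -0.66 and -0.89. Nr1d1 went from -0.61 with Arntl to 0.16, and therefore rested on those 2 libraries. The 5 genes most like Arntl were Slc25a22 (0.98), Dnm1l (0.97), Iars (0.96), Zw10 (0.95) and Utp15 (0.95). The 5 most like Dbp were Bhlhb9 (0.96), Myo1e (0.95), 6030446N20Rik (0.91), Klhl13 (0.9) and Ing4 (0.9). The libraries share groups and processing, and no p is given.

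Between depots on SD, no clock gene passed the test of the main fit, which was unpaired, 0 of 10 beside 25.7% of all genes. Dbp came nearest, at 6.51 ± 1.05 CPM (SD, n = 3) in VWAT_SD and 3.91 ± 0.916 CPM in SWAT_SD. Its log2 difference was 0.73 ± 0.268 with an interval of 0.15 to 1.31 (adjusted p = 0.0618, edgeR). All 3 VWAT_SD libraries were above all 3 SWAT_SD libraries for Dbp and for Per3 (0.35, adjusted p = 0.184, edgeR), 2 of 10 members beside 23.6% of all genes. Cry2 was lower in VWAT by a log2 difference of -0.28 (adjusted p = 0.109, edgeR), with overlapping libraries.

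Deviations of same-numbered SD libraries of the 2 depots correlated over all genes at 0.18, 0.18 and 0.4, and the labels name no pairing. A fit of these 6 libraries that took them as pairs, chosen after the data were seen, called 4 members. With the replicate number as a block in that fit, Per2 (0.38, adjusted p = 0.0013), Per3 (0.35, adjusted p = 0.00576) and Dbp (0.72, adjusted p = 0.0117) were higher in VWAT and Cry2 (-0.27, adjusted p = 0.00332) was lower, by edgeR. In that fit 47.3% of all genes passed, so 4 of 10 was near the background. Dbp passed in 10 of the 21 alternatives and its adjusted p ran from 0.00896 to 0.244.

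On HFD, Nr1d1 was lower in VWAT than in SWAT and was the one member of 10 that passed, beside 26.8% of all genes. Its means were 33.3 ± 5.68 CPM in VWAT_HFD and 58.4 ± 18 CPM in SWAT_HFD (SD, n = 3), a log2 difference of -0.80 ± 0.234 (adjusted p = 0.0217, edgeR). The libraries overlapped, since SWAT_HFD library 3 (37.6 CPM) was below VWAT_HFD library 2 (38.8 CPM). Across the 10 members the libraries of the depots lay apart for 0, beside 36.0% of all genes. The call was lost without VWAT_HFD replicate 1 (adjusted p = 0.052), VWAT_HFD replicate 3 (0.0617), SWAT_HFD replicate 1 (0.0854) or SWAT_HFD replicate 2 (0.0947), all by edgeR. Scaled by library size alone, the difference was -0.51 (adjusted p = 0.0556, edgeR). Thra, the thyroid hormone receptor gene that overlaps Nr1d1 on the other strand, was also lower in VWAT on HFD, by -0.28 (adjusted p = 0.0328, edgeR), though at 0.01 when scaled by library size alone. On SD Nr1d1 differed by -0.3 (adjusted p = 0.386, edgeR). Of the mesothelial markers, 4 were higher in VWAT on both diets, with Wt1 at 97.8 to 128 CPM making up most of the sum there, and Krt19 was lower (-2.07 on SD and -2.61 on HFD), and their part in the depot differences was not tested.

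Beyond the core, 2 further genes of the clock changed with diet, both in VWAT. The list of further clock genes had 18 members that were tested (Ciart is listed in the table as Gm129). In VWAT on HFD 1 rose and 1 fell, with a list median of 0.01, beside 8.64% of all genes that rose and 6.98% that fell. Bhlhe40, which encodes DEC1, a repressor at E-boxes that also responds to many stimuli, read 91.2, 63.8 and 59.3 CPM on SD and 126, 142 and 107 CPM on HFD. All HFD libraries were above all SD libraries, as for 15.5% of all genes, and the rise was 0.81 ± 0.154 (adjusted p = 0.00479, edgeR), past the threshold under all 20 alternatives run. Nfil3, a repressor at D-boxes and so an opponent of DBP, read 116, 114 and 93.1 CPM on SD and 84.9, 86.2 and 81.5 CPM on HFD. It fell by 0.35 (adjusted p = 0.0356, edgeR), and it lost the call in 6 of 20 alternatives, with adjusted p from 0.00873 to 0.124. In SWAT 0 of the 18 passed, though all HFD libraries were above SD for Bhlhe40 (0.37, adjusted p = 0.291, edgeR) and below for Nfil3 (-0.31, adjusted p = 0.184), as for 11.6% and 10.2% of all genes. Neither gene's diet difference was shown to differ between depots (adjusted p = 0.73 and 0.981, edgeR).

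The relatives of Dbp and Arntl in that list had no diet call. Npas2, a stand-in for CLOCK, differed by 0.08 in both depots, and Rora, an activator of Arntl, by 0.24 in VWAT and 0.11 in SWAT. Tef and Hlf, which bind D-boxes as DBP does, differed by -0.18 and -0.51 in VWAT and by 0.12 and -0.52 in SWAT. Bhlhe41 (DEC2) gave 0.13 and 0.03, and Ciart, a repressor of the BMAL1 pair, gave 0.38 and -0.75 at 0.216 to 0.578 CPM.

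Between depots, 7 of the 18 further genes passed on SD and 5 on HFD. On SD 4 were higher in VWAT and 3 lower, beside 13.2% and 12.5% of all genes, and on HFD 3 and 2, beside 13.4% and 13.4%. Rorb, a relative of Rora, had 0.561 ± 0.0882 CPM in VWAT_SD and 12.8 ± 2.25 CPM in SWAT_SD, a difference of -4.51, and -4.92 on HFD (adjusted p = 7.01e-09 and 4.95e-09, edgeR). Hlf was higher in VWAT by 1.21 on SD and 1.22 on HFD (adjusted p = 0.00304 and 0.00447, edgeR), Bhlhe41 by 0.74 and 0.84 (0.00216 and 0.000975), and Nfil3 by 0.38 and 0.34 (0.0147 and 0.0272). Fbxw11, part of the ubiquitin ligase that degrades PERIOD, was lower in VWAT by -0.33 and -0.31 (adjusted p = 0.022 and 0.0308, edgeR), calls lost when scaled by library size alone (0.369 and 0.861). On SD, and not on HFD, Bhlhe40 was lower (-0.45, adjusted p = 0.0466, lost in 8 of 21 alternatives, with -0.23 when scaled by library size alone) and Prkaa1, an AMPK subunit that acts on CRY1, higher (0.26, adjusted p = 0.041, or 0.0509 with the replicate block over all 12 libraries), and whether these differences differed between the diets is the interaction, which no gene passed.

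Of 19 genes known as rhythmic outputs in many tissues (Bhlhe41, Tef, Hlf and Ciart are also in the list above), 2 rose and 4 fell on HFD in VWAT, beside 8.64% and 6.98% of all genes, and 0 passed in SWAT. Their median was -0.18 in VWAT. Usp2, a deubiquitinase, rose from 29 ± 0.853 to 50.7 ± 11.2 CPM (0.80, adjusted p = 0.00213, edgeR), and Ppard, a lipid-sensing receptor, rose from 23.7 to 29.6 CPM (adjusted p = 0.0391). Tspan4 (adjusted p = 0.0408), Pnp (0.0219), Avpr1a (0.0301) and Cys1 (0.0238) fell, by edgeR. Usp2 passed in all 20 alternatives, whereas Ppard, Tspan4, Pnp, Avpr1a and Cys1 lost the call in 6, 12, 5, 5 and 4 of them. In SWAT Usp2 differed by 0.11 (adjusted p = 0.754, edgeR), and the diet difference between depots was 0.69 (adjusted p = 0.478). Between depots 4 of the 19 were higher in VWAT and 4 lower on SD, beside 13.2% and 12.5% of all genes, and 3 and 4 on HFD, beside 13.4% each way. Avpr1a was higher by 1.65 and 1.29, and Cys1 on SD by 0.34 (adjusted p = 0.0479, or 0.0681 with the replicate block, edgeR), while Pnp and Por were lower on both diets, Usp2 and Ppard on SD, and Nampt and Tspan4 on HFD. Scaled by library size alone, the depot calls of Usp2 (-0.27), Ppard (-0.23), Nampt (-0.05) and Tspan4 (-0.06) were lost.

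Lists of genes that answer to signals known to reset the clock held changes with diet in VWAT. Over all genes 8.64% rose and 6.98% fell in VWAT, and 0.967% and 0.147% in SWAT. Of 14 glucocorticoid response genes 7 fell and 0 rose in VWAT (Dusp1, Klf9, Ddit4, Errfi1, Cebpd, Pdk4 and Angptl4), with a median of -0.25. Dusp1, Klf9, Errfi1 and Ddit4 lost the call in 11, 9, 5 and 3 of 20 alternatives, whereas Cebpd, Pdk4 and Angptl4 held in all 20. In SWAT 1 of the 14, Cebpd, fell (-0.69, adjusted p = 0.0306, edgeR), a call lost in 9 of 20 alternatives with adjusted p up to 0.153, and the list median was -0.2. Fkbp5 and Tsc22d3, targets of that receptor, did not pass in VWAT (0.16 and -0.06, adjusted p = 0.551 and 0.894, edgeR). Among 20 immediate early genes 7 rose in VWAT (Fosl1, Egr3, Nr4a2, Nr4a3, Ier3, Crem and Klf4), 2 fell (Fos and Egr1), and 0 passed in SWAT. Fos fell from 4600 to 2970 CPM (adjusted p = 0.0244, edgeR) and Egr1 from 7370 to 4770 CPM (adjusted p = 0.0415), calls lost in 6 and 12 of 20 alternatives.

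Among 12 heat and cold response genes 2 fell in VWAT, Cirbp and Dnajb1, beside 6.98% of all genes, and 0 passed in SWAT. Cirbp, a cold-induced RNA-binding protein gene whose level follows the daily cycle of body temperature, fell from 28.5 ± 8.36 to 13 ± 1.32 CPM (-1.14, adjusted p = 0.00699, edgeR). In SWAT it differed by -0.45 (adjusted p = 0.416, edgeR), and Hspa8, a heat shock protein gene, differed by -0.21 in VWAT and -0.1 in SWAT (adjusted p = 0.231 and 0.742). Of 10 genes of NAD and nutrient sensing, 1 rose (Parp1, a call lost when scaled by library size alone) and 2 fell (Ppargc1a and Nr1h2) in VWAT, beside 8.64% and 6.98% of all genes, and 0 passed in SWAT. All 10 cell division genes rose in VWAT and 8 of 10 in SWAT, with medians of 3.18 and 2.63, beside 8.64% and 0.967% of all genes. The VWAT calls held in all 20 alternatives. Each SWAT call was lost in some of 20 alternatives, from 4 for Mki67 to 11 for Ccnb1. In SWAT 0 of all genes passed without SWAT_SD replicate 1, 2 or 3 or without SWAT_HFD replicate 2. Mki67, which marks dividing cells, rose from 8.49 to 69.1 CPM in VWAT and from 4.14 to 31.3 CPM in SWAT (adjusted p = 0.000793 and 0.0189, edgeR). The part of cell division in the levels of the clock genes was not tested.

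Between depots, the same lists held calls on both diets, beside 13.2% of all genes higher in VWAT and 12.5% lower on SD, and 13.4% each way on HFD. Of the glucocorticoid response genes, Sgk1 was higher in VWAT on both, Mt1, Mt2 and Angptl4 were lower on both, Nfkbia was lower on SD, and Dusp1 and Pdk4 were lower on HFD. Of the immediate early genes, 4 were higher in VWAT and 4 lower on SD (Egr2, Nr4a1, Nr4a3 and Sik1 against Fosl1, Ier3, Klf4 and Zfp36). On HFD 8 were higher, adding Fosl2, Egr3, Nr4a2 and Crem, and 4 lower (Fos, Atf3, Klf4 and Zfp36). Hspa8 and Hsp90ab1 were lower in VWAT on both diets, Hspe1 and Dnaja1 on SD, and Hsp90aa1 and Dnajb1 on HFD, while Cirbp was higher on SD and Rbm3 on HFD. Sirt1 and Pparg were lower in VWAT on both diets and Nampt on HFD, and Prkaa1 and Nr1h3 were higher on SD and Parp1 on HFD. Cell division genes gave 0 of 10 on SD and 9 of 10 higher in VWAT on HFD, all but Cenpf. These 9 calls were lost in 6 (Aurkb, Mki67 and Plk1) to 14 (Ccnb1) of 20 alternatives. By limma voom, and with only the libraries compared, all 9 were lost. Some higher calls of other lists were lost too, such as Prkaa1 on SD in 9 of 21 and Parp1 on HFD in 6 of 20. Those of Egr2, Sik1 and Sgk1 held on both diets. Scaling by library size alone moved the median of all genes toward higher in VWAT, to 0.236 on SD and 0.301 on HFD. With that scaling every call of a gene higher in VWAT in this paragraph held, while calls of lower genes held for 1 of 4 and 2 of 5 glucocorticoid response genes, 2 of 4 and 0 of 4 immediate early genes, 0 of 4 and 0 of 4 heat and cold genes, and 1 of 2 and 1 of 3 nutrient genes, SD first. Hspa8 then differed by -0.2 on SD and -0.25 on HFD, against -0.42 and -0.53, and Mt1 by 0.01 on HFD.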

How the data were processed

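RNA-seq counts were analysed for 12 libraries in 4 groups of 3. The authors deposited 1 table of whole-number read counts per gene, not normalised. TopHat alignment, HTSeq counting and the mm9 build are named in the submitters' processing notes, and their versions are not given in the sources used here. Per the labels' protocols, libraries were poly(A)-selected, marked strand with dUTP and were read as 75 bp single ends. Entries that name no gene (reads in no gene, 3.53 to 5.57% of a library, ambiguous, 1.71 to 1.95%, or not unique, 14.98 to 20.81%) were left out.

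Genes were filtered with filterByExpr (14266 kept, 132 removed) and tested with edgeR 4.0.16 (quasi-likelihood F test, robust, TMM, R 4.3.3) in 1 fit of 4 groups for 5 contrasts, with Benjamini-Hochberg adjustment over all genes and calls at an adjusted p under 0.05. CPM are TMM-scaled, and 95% intervals are approximate, from the standard error and the t quantile. Depth was 17.6 M to 56.1 M gene counts per library. The members and gene lists were chosen with earlier results of these data known. Named genes were all members in every contrast, list genes past the test, and in any case Npas2, Tef, Hlf, Ciart, Bhlhe40, Bhlhe41, Nfil3, Rora, Fos, Egr1, Fkbp5, Tsc22d3, Cirbp, Hspa8 and Mki67, with the 5 genes most like Arntl and the 5 most like Dbp. Thra was named after its values were seen.

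Same-numbered libraries were checked for pairing by the correlation of their deviations from group means: 0.18, 0.18 and 0.4 between depots on SD, and -0.08, 0.18 and 0.07 on HFD. The main fit was unpaired for every contrast, and the numbers were used as a block in the alternatives that name it. Between diets it was -0.02, 0.03 and 0.07 in VWAT and 0.01, 0.12 and 0.13 in SWAT. Alternatives were other scalings, no filter, DESeq2 1.42.0, limma voom 3.58.1, only the libraries compared, the replicate block and each library left out. Chosen after the data were seen were leaving out both HFD libraries numbered 3 and a blocked fit of the 6 SD libraries. Promoter sequences are RefSeq's on GRCm38.p6, and no mm9 annotation was used here. The edgeR fit was tested on simulated data.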

Additional observations from a re-analysis of the deposited data

How the results depend on the processing

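A design of 3 pools a group, each of unknown collection hour, limits what can be said of phase: a shift that all libraries share, or one as small as the spread between pools, was not detectable. In 5 comparisons the 10 members gave 50 log2 differences, and over up to 21 alternatives 24 of them turned sign at least once; Nr1d1 on HFD was the one that had passed, and it did not turn sign.

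The count of members that passed with diet in VWAT was 0 to 1 with 1 library left out (Per2 without VWAT_HFD replicate 3) and 2 without both HFD libraries numbered 3. Between depots on SD it was 0 to 1 with 1 library left out, 2 with library size alone (Per3 and Dbp), 1 by DESeq2's Wald test and 1 by limma voom (Dbp in each), 2 with only the libraries compared, 1 without both HFD libraries numbered 3 (Dbp), and 4 in the 6 SD libraries with the replicate block. Between depots on HFD it was 0 to 1 with 1 library left out and 2 with library size alone (Per1 and Per2). The replicate block in all 12 libraries gave 0 members in both diet comparisons, in their difference and between depots on SD, and 1 on HFD (Nr1d1, -0.77, adjusted p = 0.00154, edgeR), so in that fit the block changed no call of a member. In the 6 SD libraries alone, the fit without the block called 2 members and the fit with it 4. Of the list genes called, the block over all 12 libraries ended the calls of Egr1 (-0.64, adjusted p = 0.0511), Tspan4 (-0.34, adjusted p = 0.0575) and Klf9 (-0.57, adjusted p = 0.0517) with diet in VWAT, of Prkaa1 and Cys1 between depots on SD, and of Mt1, Ccnb1 and Aurkb between depots on HFD (edgeR).

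Library size alone, without TMM, moved the median of all genes to -0.126 and -0.177 for diet in VWAT and SWAT and to 0.236 and 0.301 for VWAT minus SWAT on SD and HFD. It changed higher against lower calls from 1232 and 996 to 799 and 1822 (VWAT diet), from 138 and 21 to 101 and 162 (SWAT diet), from 1880 and 1789 to 4275 and 1118 (depot, SD) and from 1917 and 1912 to 5830 and 1124 (depot, HFD). It turned Arntl and Clock to -0.1 and -0.05 with diet in VWAT, Arntl, Clock and Nr1d2 to -0.14, -0.09 and -0.13 in SWAT, and Arntl and Clock to 0.04 and 0.04 in the difference between depots. It turned Clock, Per1, Cry1 and Nr1d2 to 0.14, 0.2, 0.13 and 0.06 between depots on SD, and Arntl, Clock, Cry1, Cry2, Thra and Mt1 to 0.26, 0.18, 0.24, 0.08, 0.01 and 0.01 on HFD.

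Leaving out both HFD libraries numbered 3 turned Arntl, Clock and Nr1d2 to -0.09, -0.04 and 0.07 with diet in VWAT, Arntl and Per3 to -0.11 and 0.09 in SWAT, and Arntl and Per2 to 0.03 and -0.32 in the difference between depots. Between depots on HFD it turned Arntl, Per3, Cry1 and Dbp to 0.03, -0.24, 0.04 and -0.1, and DESeq2 gave Dbp there as -0.02. The causes of these turns were not tested.

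With 1 library left out, members near 0 ran to both sides of it. With diet in VWAT Arntl ran from -0.09 to 0.11, Clock from -0.06 to 0.13, Cry1 from -0.14 to 0.05 and Nr1d2 from -0.22 to 0.07. In SWAT Arntl ran from -0.11 to 0.11, Clock from -0.02 to 0.15, Per3 from -0.23 to 0.1 and Nr1d2 from -0.11 to 0.3. In the difference between depots Arntl ran from -0.11 to 0.12, Clock from -0.15 to 0.08, Per2 from -0.32 to 0.28, Cry1 from -0.06 to 0.25, Cry2 from -0.02 to 0.2 and Nr1d2 from -0.39 to 0.03. Between depots on SD Clock ran from -0.19 to 0.04, Per1 from -0.12 to 0.12 and Nr1d2 from -0.31 to 0.09. On HFD Arntl ran from -0.11 to 0.12, Per3 from -0.1 to 0.26, Cry1 from -0.15 to 0.16 and Dbp from -0.27 to 0.29.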
